A study of Mus musculus with 33 samples.

Results

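The genes described here were measured in the mouse MNTB, the medial nucleus of the trapezoid body, over the first 2 postnatal weeks. Their mean level was higher at postnatal day 6 (P6) than at birth (P0). It was lower at P14 than at P6, though not in every gene back at the P0 level. Of 14857 genes with a single symbol in the array annotation, each read from its brightest probe set, 61 had a P6 mean at least 0.5 above the P0 mean and a P14 mean at least 0.5 below the P6 mean on the log2 scale. Leaving out Smpx, Hrc, Mlip and Rrad, which are known from muscle, gave the 57 genes described here. The P0, P6 and P14 values chose these genes, so differences among those 3 ages are given as a description with no test. Tests were made only between mice of P1 to P4, whose values the thresholds did not use.

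Total RNA of 33 single wild-type mice was measured on 33 arrays, labelled with biotin after whole-transcript amplification. Groups of 5 mice covered P0, P1, P2, P3 and P6, groups of 4 covered P4 and P14, and every mouse was untreated and came from a numbered litter. Litter number 4 was absent at P4 and P14 and present at every other age. The descriptions give the strain as FVB, while the strain tag reads FVN. The nucleus was picked with a needle out of living brain slices, which enriches its cells without isolating any type. In such bulk tissue, fewer cells of a type and less RNA per cell cannot be told apart.

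The MNTB is a relay of the auditory brainstem that turns excitation from the cochlear nucleus into glycinergic inhibition. Each principal neuron receives 1 very large terminal, the calyx of Held, which grows over the cell during the first postnatal week while weaker competing inputs are lost. In the same days astrocytes and cells of the oligodendrocyte lineage surround the neurons, and myelination follows. Synapse formation, glial proliferation and the assembly of perineuronal matrix all pass through this window.

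The 13 measured markers of MNTB principal and glycinergic neurons had a mean log2 level of 7.47 ± 0.20 at P14 (SD, n = 4) and 6.66 ± 0.12 at P0 (SD, n = 5). Correlations between arrays of the same age ranged from 0.967 to 0.990 over all probe sets, and no 2 arrays were identical. The P6 array of litter 4 stood apart: its interquartile range of log2 values was 2.25, against 2.72 to 2.99 in the other P6 arrays. It was the lowest P6 array for 36 of the 57 genes and for 46.3% of all genes. Without it 53 of the 57 genes still met the thresholds, as did 42 further genes, and the median P6 minus P0 difference of the 57 was 0.88. Taar7b, Olfr1234, Castor2 and Il17rd were the 4 that did not.

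Averaged over the 57 genes, the log2 level was 5.53 at P0, 5.85 at P1, 6.02 at P2, 6.19 at P3, 6.31 at P4, 6.45 at P6 and 5.57 at P14. The P6 minus P0 difference had a median of 0.80 and ran between 0.53 and 3.23, with 18 genes at 1 or more. The P14 minus P6 difference had a median of -0.82 and ran between -0.51 and -2.11, with 14 genes at -1 or beyond. Gipc2, Adamts16, Lrrtm3 and Angptl1 were the 4 genes that changed by at least 1 both ways. Over all 14857 genes the medians were -0.01 for P6 minus P0 and 0.06 for P14 minus P6. The genes fitting the thresholds were 0.411% of all genes, and of the 901 genes with a P6 minus P0 difference of at least 0.5 only 6.77% also had the later drop.

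**Figure D1:**
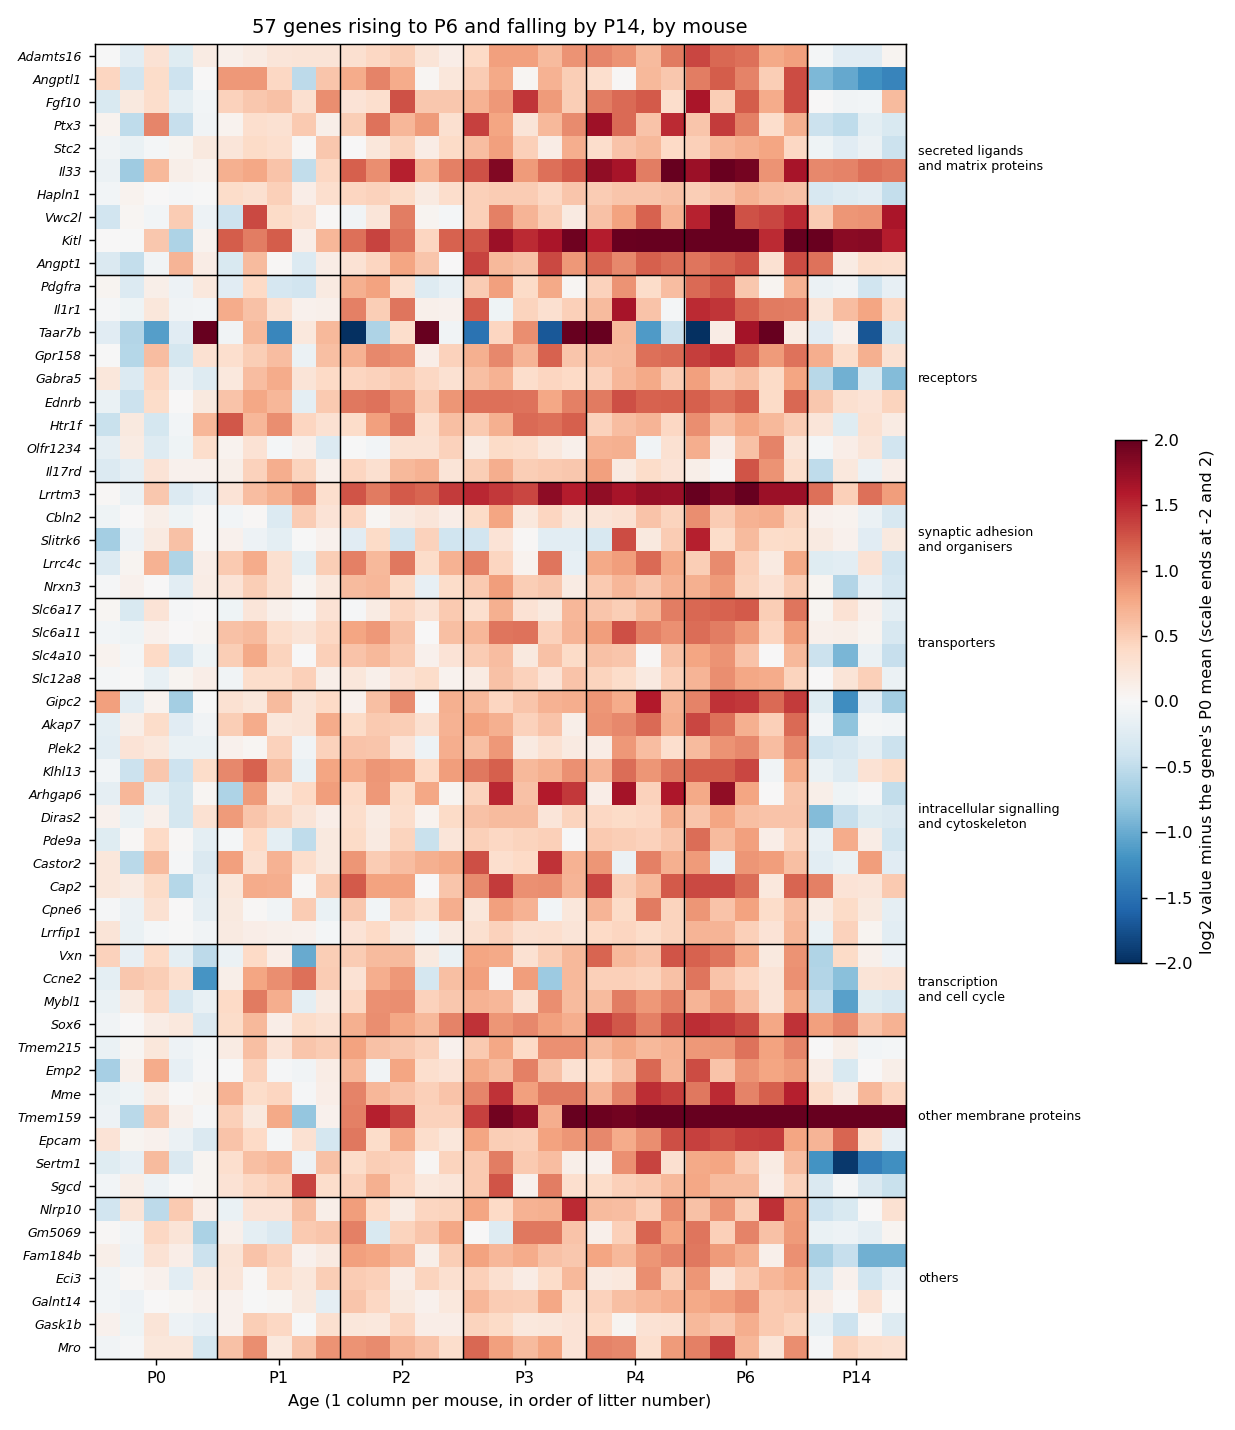
Log2 value of each of the 57 genes in each of the 33 mice, minus that gene's P0 mean, with genes in rows grouped by role and mice in columns ordered by age and litter number; red is above and blue below the P0 mean, and the colours end at -2 and 2. Most rows darken through P1 to P6 and pale again at P14, while Tmem159 and Kitl stay red at P14 and Sertm1 and Angptl1 turn blue.

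The 5 P6 mice lay above every P0 and every P14 mouse for 22 of the 57 genes. Among all 14857 genes this held for 50, which is 0.337%. Since the thresholds used these same values, nothing is read from the contrast. The means peaked at P6 in 39 genes, at P4 in 12, at P3 in 5 and at P1 in 1, so in the other 18 the P6 mean was not the highest. In 19 genes the mean stepped upward at every sampled age through P6.

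At the edge of the thresholds, Lrrfip1 and Cpne6 were just inside, with P14 minus P6 differences of -0.51 each. Dscam, a cell adhesion molecule of developing axons, was just outside with a P14 minus P6 difference of -0.497, its means being 7.19 at P0, 7.73 at P6 and 7.23 at P14. Lrrtm4, a relative of Lrrtm3, was just outside with a P6 minus P0 difference of 0.497, its means being 6.58 at P0, 7.08 at P6 and 6.24 at P14.

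The comparison of P4 with P1 asked how much of the climb was under way in mice whose values the thresholds did not use. Those mice did count in picking the brightest probe set, a choice that among the 57 existed only for Castor2 and Il17rd. Of the 57 genes, 13 were higher at P4 than at P1 and 0 were lower (limma, Benjamini-Hochberg adjusted p under 0.05 over 16686 probe sets). Of all probe sets 1.27% were called higher and 0.749% lower. At an unadjusted p under 0.05 there were 31 of the 57, and 12.2% of all probe sets in either direction. The 13 were Tmem159, Il33, Kitl, Lrrtm3, Angpt1, Ptx3, Sox6, Mme, Epcam, Ednrb, Adamts16, Galnt14 and Slc6a17.

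The median P4 minus P1 difference of the 57 was 0.45 on the log2 scale, and 53 of them were above 0, against a median of 0.00 and 48.9% above 0 in all genes. The 4 below 0 were Angptl1 at -0.04, Sgcd at -0.08, Htr1f at -0.17 and Ccne2 at -0.20, and none of these was called. Every P4 mouse lay above every P1 mouse in 23 of the 57 genes, 40.4%, where the same held for 2.91% of all genes. A linear trend over P1, P2, P3 and P4 called 16 genes upward and 0 downward, against 1.62% and 1.02% of all probe sets. Fam184b, Lrrfip1 and Vxn were the 3 it added. The P1 group held a mouse of litter 4 and the P4 group did not. That mouse was the lowest P1 mouse for 26 of the 57 genes and for 34.5% of all genes. Without it the median P4 minus P1 difference of the 57 was 0.38, with 51 above 0.

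A set of genes chosen to be high at P6 starts from a raised share of calls. The fitting comparison is the other 840 genes with a P6 minus P0 difference of at least 0.5, whose later drop, if any, was under 0.5. Of these, 18.9% were called higher at P4 than at P1, beside 22.8% of the 57. Their median P4 minus P1 difference was 0.37 and 93.0% were above 0, the same share as in the 57. So the passage through P1 to P4 is described here for these genes, and is not particular to them.

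**Figure D2:**
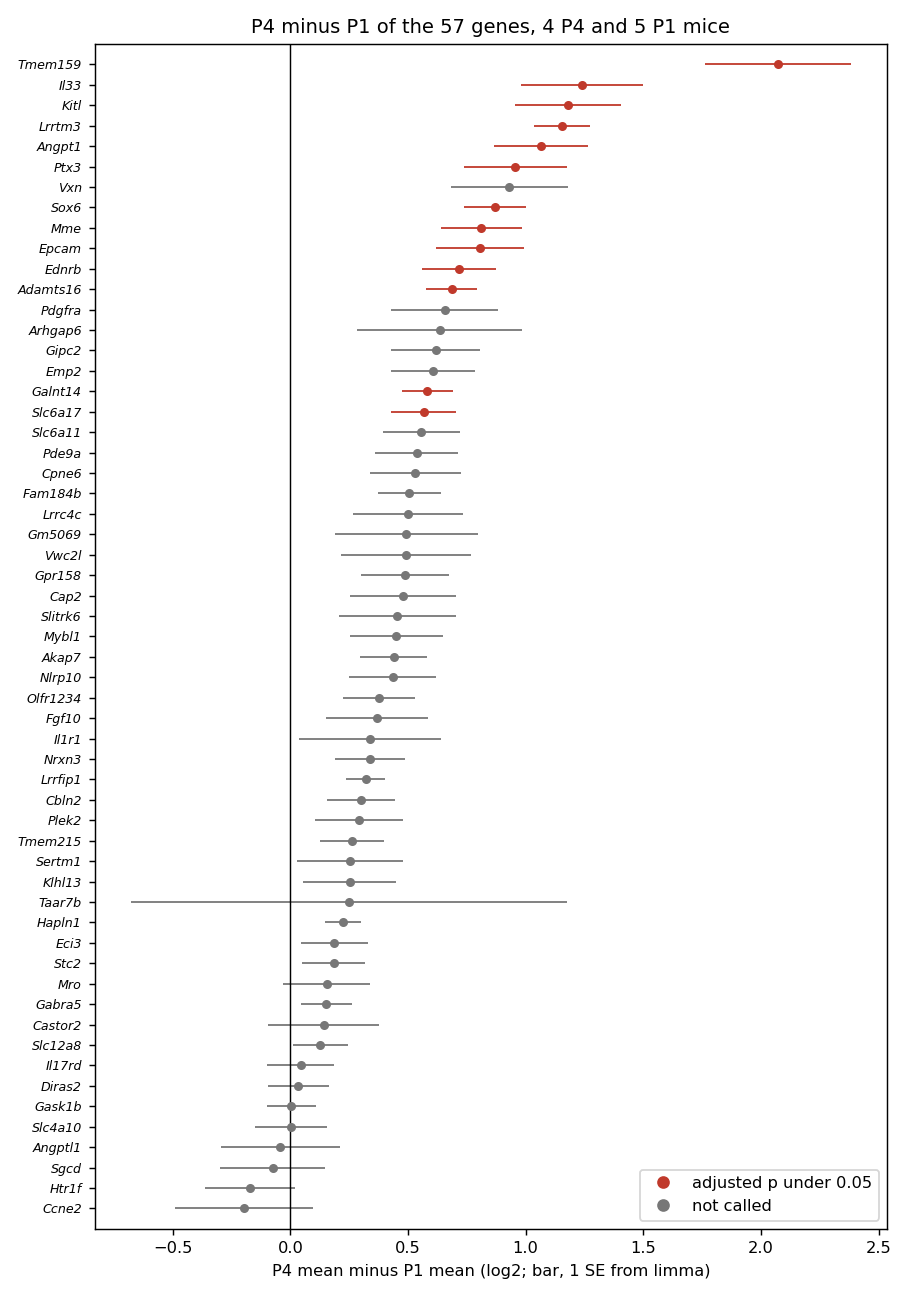
P4 mean minus P1 mean on the log2 scale for each of the 57 genes, from 4 P4 and 5 P1 mice, with bars of 1 standard error from limma; red marks an adjusted p under 0.05. Tmem159 lies apart at 2.07, the 13 called genes all lie above 0.5, and 4 genes lie below 0.

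Glial and neuronal marker lists moved over the same days. For comparison, 1.27% of all probe sets were called higher at P4 than at P1 and 0.749% lower. Of 27 measured markers of newly formed oligodendrocytes 13 were called higher at P4, and their mean level ranged from 6.27 to 6.48 in P4 mice and from 5.59 to 5.87 in P1 mice. Of 16 precursor markers 6 were called higher, with 5.67 to 5.79 in P4 mice and 5.07 to 5.29 in P1 mice. Of 16 astrocyte markers 4 were called higher, with 7.21 to 7.36 in P4 mice and 6.74 to 6.98 in P1 mice. Of 21 myelin genes 9 were called higher, with 5.25 to 5.49 in P4 mice and 4.59 to 4.78 in P1 mice. None of the 19 microglial or 21 endothelial markers was called either way. Of 13 markers of MNTB principal and glycinergic neurons 3 were called higher and 1 lower, with 7.17 to 7.50 in P4 mice and 6.74 to 6.97 in P1 mice. Of 15 markers of glutamatergic neurons 2 were called lower, with 4.76 to 4.91 in P4 mice and 5.03 to 5.20 in P1 mice. Arrays have no true zero, so no marker is at 0, and the part of these cells in the result was not tested.

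Those lists did not share the later drop. At P14 the mean level of the precursor markers was 5.90, against 5.90 at P6, and that of the astrocyte markers was 8.12, against 7.34. Newly formed oligodendrocyte markers were at 7.11 at P14, against 6.74 at P6, and myelin genes at 9.19, against 6.60. Of the 57 genes only Pdgfra was on any marker list.

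Secreted ligands and matrix proteins made up 10 of the 57 genes, and 5 of them were called higher at P4: Kitl, Angpt1, Il33, Ptx3 and Adamts16. Of all probe sets 1.27% were called higher, and of the other genes with a P6 minus P0 difference of at least 0.5, 18.9% were. Here and below, roles were assigned after the genes were known and hold few genes each. Differences between roles in the share called were therefore not tested. Kitl, the stem cell factor that binds the Kit receptor, had log2 levels of 6.34, 6.75, 7.10 and 7.02 in the P4 mice and 5.98, 5.79, 5.98, 4.91 and 5.43 in the P1 mice. The groups did not overlap, and the difference was 1.18 ± 0.23 (limma SE, adjusted p = 0.00709). Il33, a cytokine kept in the nucleus and released by damaged cells, had 7.06, 6.93, 6.31 and 7.38 in the P4 mice and 6.00, 6.05, 5.86, 4.79 and 5.69 in the P1 mice. Again no P4 mouse fell into the P1 range, although the P1 mouse of litter 4 was low. The difference was 1.24 ± 0.26 (limma SE, adjusted p = 0.0145).

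Angpt1, the ligand that activates the Tie2 receptor of endothelial cells, had 5.39, 5.19, 5.41 and 5.34 in the P4 mice and 3.91, 4.86, 4.24, 3.95 and 4.37 in the P1 mice. The P4 mice were nearly alike and all above the P1 mice (difference 1.07 ± 0.20, limma SE, adjusted p = 0.00581). Ptx3, a soluble pattern-recognition protein of the pentraxin family, had 5.60, 5.04, 4.48 and 5.40 in the P4 mice and 3.96, 4.24, 4.21, 4.42 and 4.02 in the P1 mice. The lowest P4 mouse was only just above the highest P1 mouse (difference 0.96 ± 0.22, limma SE, adjusted p = 0.0275). Adamts16, a secreted metalloprotease of the matrix, had 5.38, 5.30, 5.03 and 5.43 in the P4 mice and 4.49, 4.57, 4.64, 4.65 and 4.65 in the P1 mice (difference 0.68 ± 0.11, limma SE, adjusted p = 0.00117). Its P1 mice spanned far less than the gap between the groups.

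These ligands parted ways by P14. Kitl averaged 4.77 at P0, 7.10 at P6 and 6.56 at P14. It kept most of its gain, as did Il33, with averages of 5.29, 6.92 and 6.31 at those ages. Adamts16 averaged 4.40 at P0, 5.43 at P6 and 4.29 at P14, a return to its starting level. Ptx3 had a P4 mean of 5.13, above its P6 mean of 4.71, and was at 3.54 at P14.

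**Figure D3:**
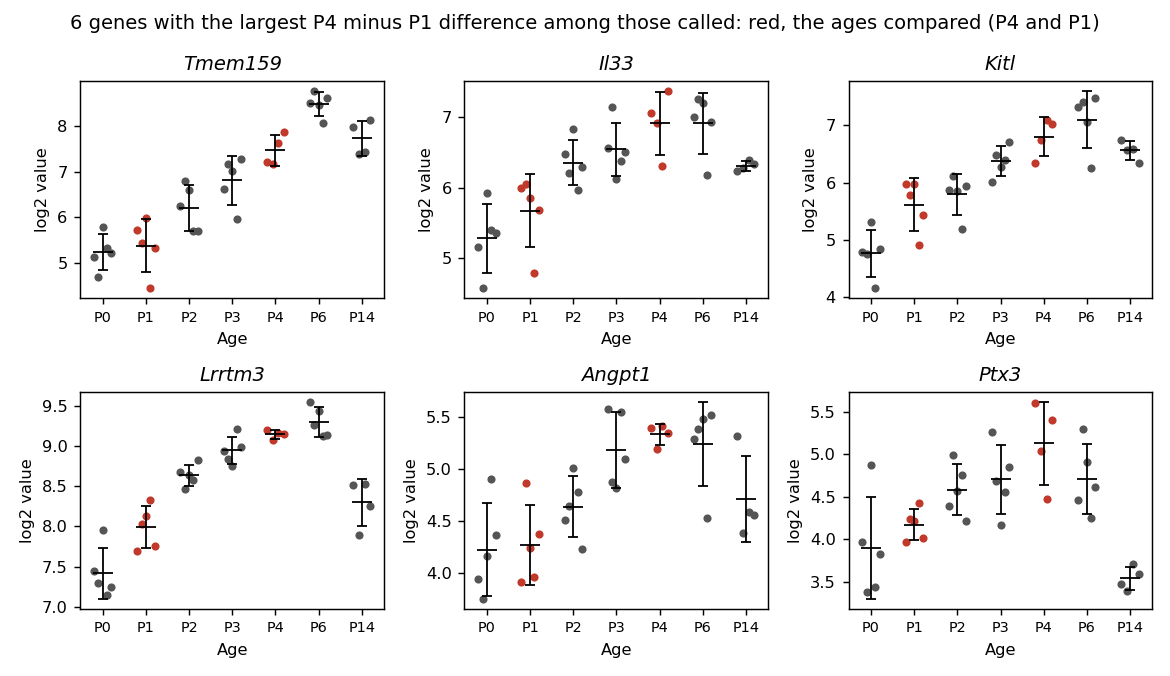
Log2 value per mouse by age for the 6 genes with the largest P4 minus P1 difference among those called; each point is a mouse, the bar is the mean with 1 SD, and red points are the P1 and P4 mice that were compared. In all 6 genes the P4 mice lie above the P1 mice, by 2.07 for Tmem159 and 0.96 for Ptx3 in the means.

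The other 5 secreted proteins were not called. Fgf10, a fibroblast growth factor that acts on Fgfr2, had a P4 minus P1 difference of 0.37 ± 0.22 (limma SE). Hapln1, the link protein that ties hyaluronan to proteoglycans in perineuronal nets, was tight: 8.23, 8.28, 8.29 and 8.31 in the P4 mice and 8.10, 8.05, 8.20, 7.86 and 8.06 in the P1 mice. Its P4 mice were all above its P1 mice, but the difference was 0.22 ± 0.08 with an adjusted p of 0.183. It averaged 7.73 at P0, 8.32 at P6 and 7.41 at P14. Vwc2l, a relative of the BMP-binding chordin proteins, differed by 0.49 and Stc2, a stanniocalcin, by 0.18. Angptl1, an angiopoietin-like glycoprotein, had nearly equal means of 6.58 at P4 and 6.63 at P1.

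Angptl1 had the widest drop of all, with 5.30, 5.16, 4.99 and 4.88 in the P14 mice and 7.21, 7.40, 7.19, 6.68 and 7.49 in the P6 mice. Its P14 minus P6 difference was -2.11, and its P14 mean lay under its P0 mean, at 5.08 against 6.19.

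The starts of 4 of the called genes with an entry in RefSeq's promoter table (build GRCm38.p6) are shown because they were among those with the largest P4 minus P1 differences. Each line gives 100 bases just before a start site, and capitals mark a match to 1 of 6 short motifs searched on both strands. The table lists 2 starts for Il33, both shown. Il33 lies on the plus strand at chr19:29925013-29925112 and chr19:29945690-29945789, Kitl on the plus strand at chr10:100015721-100015820, Lrrtm3 on the minus strand at chr10:64090256-64090355 and Ptx3 on the plus strand at chr3:66219787-66219886.
Il33, upstream start: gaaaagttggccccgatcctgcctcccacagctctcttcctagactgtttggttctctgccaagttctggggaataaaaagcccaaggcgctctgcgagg
Il33, downstream start: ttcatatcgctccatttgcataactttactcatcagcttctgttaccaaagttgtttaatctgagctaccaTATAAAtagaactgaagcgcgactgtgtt
Kitl: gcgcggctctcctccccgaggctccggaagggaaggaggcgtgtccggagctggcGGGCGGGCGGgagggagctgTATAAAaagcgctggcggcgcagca
Lrrtm3: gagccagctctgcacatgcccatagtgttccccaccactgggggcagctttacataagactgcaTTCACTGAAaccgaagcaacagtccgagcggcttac
Ptx3: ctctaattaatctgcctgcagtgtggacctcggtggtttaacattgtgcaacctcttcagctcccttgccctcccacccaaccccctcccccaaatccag

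In Kitl and in the downstream start of Il33 the capitals mark TATAAA, the core of a TATA box. Kitl also holds 2 overlapping copies of GGGCGG, the letters of a GC box, and Lrrtm3 holds TTCNNNGAA, the pattern bound by STAT factors. The window of Ptx3 and the upstream window of Il33 hold none of the 6 motifs. A match is a run of letters and not a shown binding site.

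Over the full window of 250 bases before to 50 bases after the start, 44 of the 57 genes had an entry, among 11868 genes of the array that had one. TATAAA was found in 15.9% of the 44, against 13.2% of all, CAGCTG in 11 of the 44, against 18.5% of all, and ACAAAG in 11.4% against 18.9%. GGGCGG was found in 52.3% against 56.9% and TTCNNNGAA in 11.4% against 8.65%. TGACGTCA was found in 0 of the 44 and in 2.72% of all. The median GC content of these windows was 55.9% against 58.3%.

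Receptors made up 9 of the 57 genes, and only Ednrb was called. Ednrb, the endothelin B receptor found on astrocytes, had 9.72, 9.96, 9.85 and 9.86 in the P4 mice and 9.24, 9.44, 9.33, 8.47 and 9.19 in the P1 mice. The groups did not overlap, and the P1 mouse of litter 4 was the lowest (difference 0.72 ± 0.16, limma SE, adjusted p = 0.0221). It averaged 8.67 at P0, 9.67 at P6 and 9.07 at P14.

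Pdgfra, the platelet-derived growth factor receptor that defines oligodendrocyte precursors, had 7.35, 7.78, 7.25 and 7.52 in the P4 mice and 6.66, 7.29, 6.56, 6.51 and 7.08 in the P1 mice. The highest P1 mouse overlapped the P4 range, and the difference of 0.66 ± 0.23 had an adjusted p of 0.188 (limma). Its P14 mice were at 6.77, 6.82, 6.50 and 6.73, all under the 5 P6 mice at 8.03, 8.15, 7.42, 6.95 and 7.58. Pdgfra was thus at 6.71 on average at P14 and 7.63 at P6, where the list of 16 precursor markers as a whole was level.

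Gabra5, the alpha 5 subunit of the GABA-A receptor, had 7.27, 6.87, 7.53 and 6.96 in the P14 mice and 8.64, 8.34, 8.42, 8.21 and 8.61 in the P6 mice, with no overlap. It had reached 72.4% of its P6 minus P0 difference by P1, and its P4 minus P1 difference was 0.15 ± 0.11 (limma SE, not called). Htr1f, the serotonin 1F receptor, averaged 5.16 at P1 and 5.38 at P3, both above its P6 mean of 5.14. Il1r1, the interleukin 1 receptor, had P6 mice at 5.98, 5.90, 5.65, 5.52 and 5.50, above all P0 and P14 mice. Its P4 mice were scattered between 4.43 and 6.13, and its P4 minus P1 difference of 0.34 ± 0.30 was not called.

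Gpr158, an orphan receptor that binds glycine and heparan sulphate proteoglycans, averaged 5.90 at P0, 7.10 at P6 and 6.43 at P14. Its P4 minus P1 difference was 0.49 ± 0.19 (limma SE, not called). Il17rd, an inhibitor of fibroblast growth factor signalling, differed by 0.04. Taar7b, a trace amine receptor, and Olfr1234, an odorant receptor, belong to large families of near-identical genes whose probes can share signal. Taar7b averaged 6.13 ± 2.08 in the 5 P6 mice (SD), and without the P6 mouse of litter 4 its P6 minus P0 difference was -0.02.

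Synaptic adhesion proteins and organisers made up 5 of the 57 genes: Lrrtm3, Cbln2, Slitrk6, Lrrc4c and Nrxn3. Lrrtm3, a postsynaptic protein that binds neurexins, had the smallest adjusted p of the 57. It had 9.20, 9.07, 9.16 and 9.14 in the P4 mice and 7.70, 8.04, 8.13, 8.32 and 7.76 in the P1 mice. The P4 mice differed among themselves by far less than from any P1 mouse (difference 1.15 ± 0.12, limma SE, adjusted p = 1.42e-05). It averaged 7.42 at P0, 7.99 at P1, 8.64 at P2, 8.94 at P3, 9.14 at P4, 9.30 at P6 and 8.30 at P14, and so was higher at each age through P6.

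Nrxn3, a presynaptic neurexin and so of the family that Lrrtm3 binds, had 9.56, 9.70, 9.58 and 9.73 in the P4 mice and 9.31, 9.53, 9.36, 9.08 and 9.26 in the P1 mice. No mice overlapped, but the difference of 0.34 ± 0.15 was not called (limma, adjusted p = 0.359). Lrrc4c, the netrin-G1 ligand, averaged 8.82 at P4 and 8.32 at P1 (difference 0.50 ± 0.23, limma SE, not called) and was highest at P4. Cbln2, a secreted bridge between neurexins and delta glutamate receptors, and Slitrk6, known for its part in wiring the inner ear, were dim. Cbln2 averaged 3.53 at P0, 4.19 at P6 and 3.46 at P14. Slitrk6 averaged 3.61, 4.27 and 3.67 at those ages. Both were under the arrays' median at each age. In the list of 56 measured genes of this class 2 were called higher at P4 than at P1 and 0 lower, beside 1.27% and 0.749% of all probe sets. The median P4 minus P1 difference of the list was -0.04.

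Transporters made up 4 of the 57 genes. Slc6a17, the vesicular carrier of neutral amino acids NTT4, had 5.72, 5.66, 5.83 and 6.20 in the P4 mice and 5.09, 5.41, 5.28, 5.19 and 5.46 in the P1 mice. The groups did not overlap (difference 0.57 ± 0.14, limma SE, adjusted p = 0.0367). Its P14 mice were at 5.23, 5.45, 5.26 and 4.99 and its P6 mice at 6.33, 6.34, 6.40, 5.67 and 6.25, the low one being litter 4.

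Slc6a11, the glial GABA transporter GAT3, had 9.85, 10.30, 10.03 and 9.94 in the P4 mice and 9.61, 9.66, 9.38, 9.29 and 9.44 in the P1 mice. The P4 mice were all higher, but with an adjusted p of 0.0993 the difference of 0.56 ± 0.16 was not called (limma). It averaged 9.02 at P0, 9.87 at P6 and 9.01 at P14, a return to the level at birth. The astrocyte list was at 8.12 at P14 and 6.73 at P0. Slc4a10, a sodium bicarbonate transporter of neurons, had reached 74.9% of its gain by P1 and differed by 0.00 between P4 and P1. Slc12a8, a less studied relative of the chloride cotransporters, differed by 0.13.

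Intracellular signalling and cytoskeletal proteins were the largest group, with 11 genes, and 0 of them was called in P4 against P1. All 11 differences were above 0, and 9 lay between 0.25 and 0.63. In the other 840 genes with a P6 minus P0 difference of at least 0.5, 18.9% were called higher and 93.0% were above 0. Gipc2, a PDZ-domain adaptor, had P14 mice at 4.75, 3.75, 4.76 and 4.31 and P6 mice at 5.98, 6.44, 6.40, 6.13 and 6.39. The P14 minus P6 difference was -1.88, and P4 exceeded P1 by 0.62 ± 0.19 (limma SE, not called). Akap7, which anchors protein kinase A, had 7.30, 6.56, 7.31 and 7.30 in the P14 mice and 8.70, 8.45, 8.06, 7.83 and 8.49 in the P6 mice. Plek2, a pleckstrin that acts on actin, had 4.41, 4.48, 4.63 and 4.38 in the P14 mice and 5.44, 5.71, 5.77, 5.42 and 5.77 in the P6 mice. In Gipc2, Akap7 and Plek2 the P6 mice lay above all P0 and all P14 mice.

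Klhl13, an adaptor of cullin 3 ubiquitin ligases, averaged 6.26 at P0, 6.94 at P1 (76.7% of its gain), 7.16 at P3, 7.19 at P4 and 7.15 at P6. Arhgap6 was widely spread, with P4 mice between 4.97 and 6.50 and P1 mice between 4.22 and 5.69. Cap2 and Lrrfip1, both tied to actin, differed by 0.48 and 0.32 between P4 and P1, Lrrfip1 with an adjusted p of 0.0518 and a called trend (adjusted p = 0.0250, limma). Pde9a, which breaks down cyclic GMP, Cpne6, a calcium-dependent membrane-binding copine, Castor2, an arginine sensor of the mTORC1 pathway, and Diras2, a Ras-like GTPase, completed the group with differences of 0.54, 0.53, 0.14 and 0.03. Castor2 and Il17rd were the 2 genes of the 57 with another probe set, and in those the P6 minus P0 differences were only 0.14 and 0.12.

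Transcription and cell cycle genes numbered 4. Sox6, a SoxD factor known from precursors of oligodendrocytes and of cartilage, had 7.04, 6.88, 6.64 and 6.94 in the P4 mice and 6.01, 6.29, 5.78, 6.01 and 5.96 in the P1 mice. The groups were well apart (difference 0.87 ± 0.13, limma SE, adjusted p = 0.000884), and its averages were 5.64 at P0, 6.93 at P6 and 6.40 at P14. Vxn, a promoter of neuronal differentiation known from frog and mouse, differed by 0.93 ± 0.25 (adjusted p = 0.0621) and had a called trend (adjusted p = 0.0437, limma). Mybl1, a Myb family factor, peaked at P4, with 6.79 there, 6.55 at P6 and 5.38 at P14. Ccne2, cyclin E2 of the start of DNA replication, was highest at P1, with 6.66 at P6 and 6.70 at P1. The cell cycle list as a whole held none of the 57 genes and had a median P6 minus P0 difference of -0.15.

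The 7 remaining membrane proteins included the gene with the largest change. Tmem159, which encodes a factor of lipid droplet assembly, had 7.21, 7.17, 7.62 and 7.85 in the P4 mice and 5.72, 5.44, 5.99, 4.46 and 5.33 in the P1 mice. The gap between the groups exceeded 1 log2 unit (difference 2.07 ± 0.31, limma SE, adjusted p = 0.000733). It averaged 5.24 at P0, 8.47 at P6 and 7.72 at P14, the largest P6 minus P0 difference of the 57, of which it kept the greater part.

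Mme, the peptidase neprilysin, had 4.52, 4.82, 5.31 and 5.23 in the P4 mice and 4.54, 4.20, 4.27, 3.81 and 3.97 in the P1 mice. It was the only called gene whose groups overlapped, by the narrowest margin (difference 0.81 ± 0.17, limma SE, adjusted p = 0.0156). Epcam, a homophilic adhesion molecule of epithelia, had 4.80, 4.57, 4.75 and 5.13 in the P4 mice and 4.39, 4.23, 3.80, 4.13 and 3.47 in the P1 mice (difference 0.81 ± 0.19, limma SE, adjusted p = 0.0282). Both genes were dim, with means under the arrays' median of the same age at 6 of the 7 ages. The same held for the called genes Ptx3 and Galnt14. Adamts16 and Angpt1 were under it at 4 ages and Kitl at 1.

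Tmem215, a membrane protein of little known function, was under the arrays' median at every age. Its P6 mice at 4.28, 4.29, 4.51, 4.23 and 4.40 lay above all P0 and P14 mice, but these values chose the gene. Its P4 minus P1 difference of 0.26 was not called. Sertm1, a small serine-rich membrane protein, had 5.38, 4.66, 5.21 and 5.35 in the P14 mice and 7.33, 7.37, 7.09, 6.74 and 7.19 in the P6 mice. Its P14 minus P0 difference was -1.43, at 5.15 against 6.58, the lowest of the 57. Emp2, a tetraspan epithelial protein, and Sgcd, delta-sarcoglycan, had P4 minus P1 differences of 0.61 and -0.08, and neither was called.

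The last 7 genes fit no common role. Galnt14, which starts mucin-type O-glycans, was the only one called, with 4.71, 4.84, 4.90 and 4.96 in the P4 mice and 4.33, 4.23, 4.28, 4.44 and 4.06 in the P1 mice (difference 0.58 ± 0.11, limma SE, adjusted p = 0.00656). Fam184b had a P4 minus P1 difference of 0.51 ± 0.13 (adjusted p = 0.0550), a called trend (adjusted p = 0.0437, limma) and a P14 minus P6 difference of -1.49. The other 5, Nlrp10, Gm5069, Eci3, Gask1b and Mro, differed by 0.00 to 0.49 between P4 and P1 and were not called.

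The calls did not all rest equally on every mouse. Adamts16, Angpt1, Galnt14, Kitl, Lrrtm3, Sox6 and Tmem159 were called under every alternative run for them. Without the P4 mouse of litter 5 only these 7 were called, and Ednrb, Epcam, Il33, Mme, Ptx3 and Slc6a17 were not, with highest adjusted p values over the alternatives of 0.0647, 0.117, 0.0714, 0.0732, 0.112 and 0.158. Ednrb was also not called without the P4 mouse of litter 2 or 3, Il33 without that of litter 1, Mme without that of litter 3 and Epcam without that of litter 1 or 3 or the P1 mouse of litter 3 or 5. Ptx3 was not called without the P4 mouse of litter 1 or 2 or the P1 mouse of litter 1, 2, 3 or 5, and Slc6a17 without the P4 mouse of litter 1 or 3 or the P1 mouse of litter 1, 2, 3 or 4. Slc6a17 was also not called with an intensity trend and robust prior in limma (adjusted p = 0.0513) or without the 3 arrays of lowest quality weight. All 13 kept a difference above 0 throughout.

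**Figure D4:**
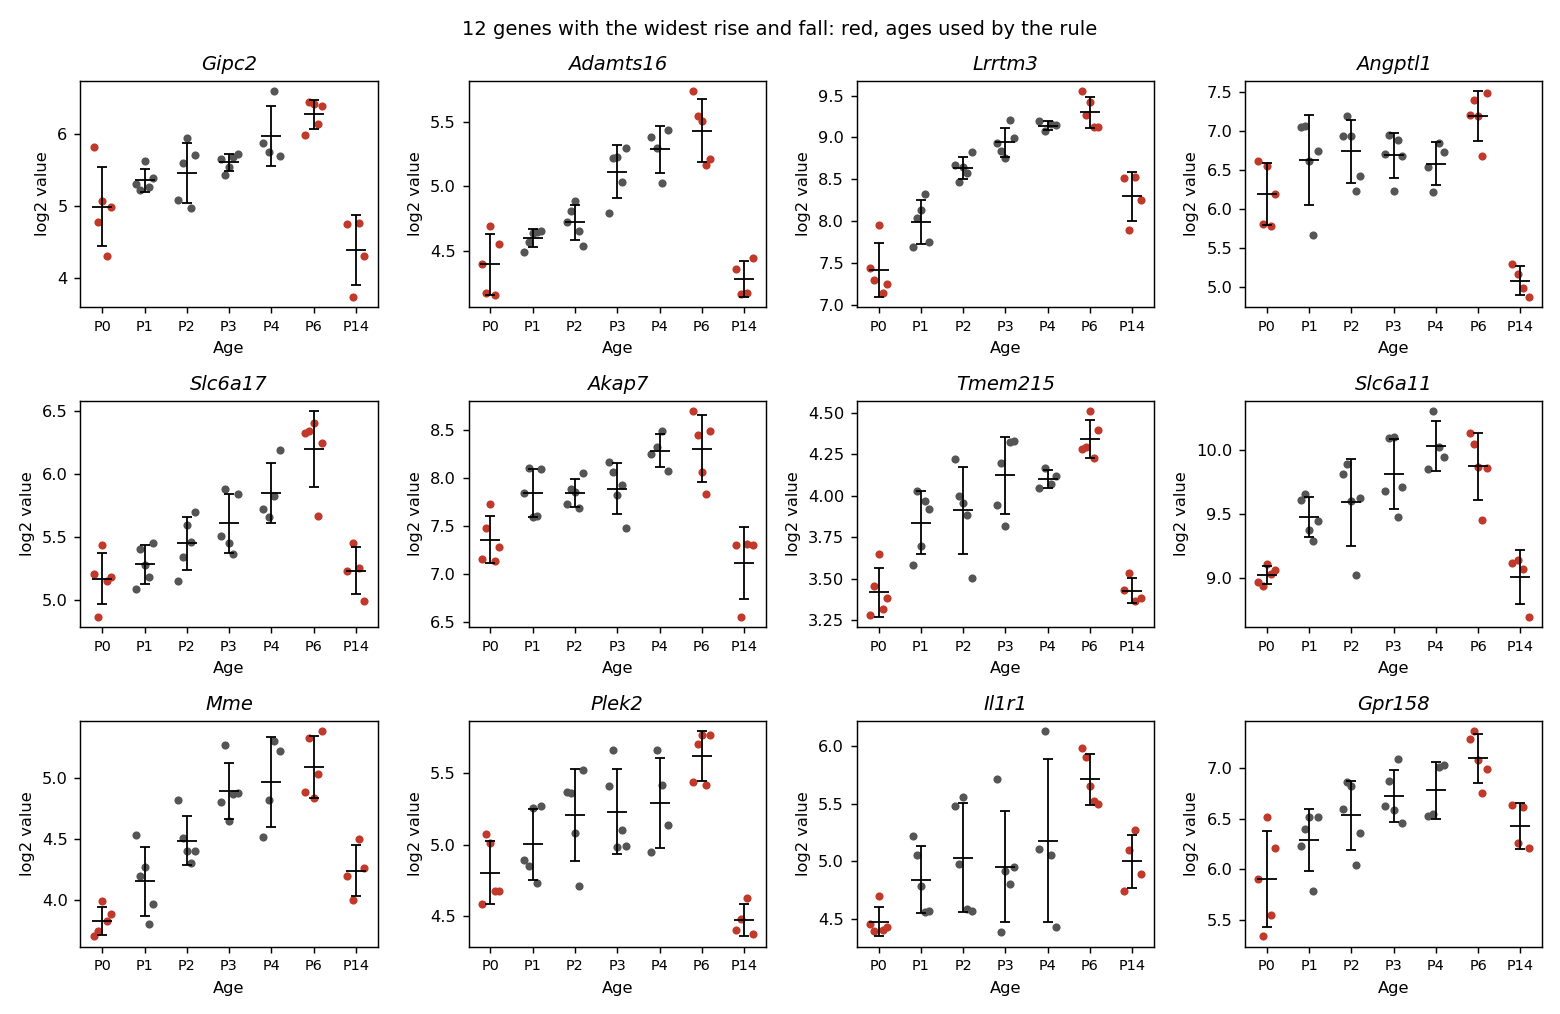
Log2 value per mouse by age for the 12 named genes with the widest rise and fall among those whose P6 mice lie above all P0 and P14 mice; each point is a mouse, the bar is the mean with 1 SD, and red points are the P0, P6 and P14 mice that chose the genes. Lrrtm3 is higher at each age through P6, with means of 9.30 at P6 and 7.42 at P0, while Angptl1 has a plateau at P1 to P4, with means of 6.63 at P1 and 6.58 at P4, before its P6 mean of 7.19.

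The genes differed in when their level climbed. The age mean first passed the midpoint between the P0 and P6 means at P1 in 18 genes, at P2 in 17, at P3 in 14, at P4 in 7 and at P6 in 1, Taar7b. The median share of the P6 minus P0 difference reached was 34.1% at P1, 53.6% at P2, 76.3% at P3 and 80.8% at P4. Slc6a17 was among the slower genes, at 66.3% at P4 and 10.9% at P1, as was Plek2, at 59.9% and 24.2%. Ptx3 and Slc6a11 were ahead of their P6 level by P4, at 152.2% and 118.5%. Angptl1 was at only 39.2% at P4 and 43.4% at P1, so that most of its gain came between P4 and P6.

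They also differed in where they ended. At P14, 40 of the 57 genes lay within 0.5 of their P0 mean. The P14 mean was more than 0.5 above the P0 mean in 10 genes, led by Tmem159 with 7.72 at P14 against 5.24 at P0, Kitl with 6.56 against 4.77, Il33 with 6.31 against 5.29 and Vwc2l with 5.08 against 4.09. The P14 mean was more than 0.5 below the P0 mean in 7 genes, among them Sertm1, Angptl1, Fam184b with 4.77 at P14 against 5.52 at P0, and Gabra5 with 7.16 against 7.83. Some of the 40 lay near the edges of that band, such as Angpt1 with 4.71 at P14 against 4.22 at P0 and Slc4a10 with 7.17 against 7.65.

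**Figure D5:**
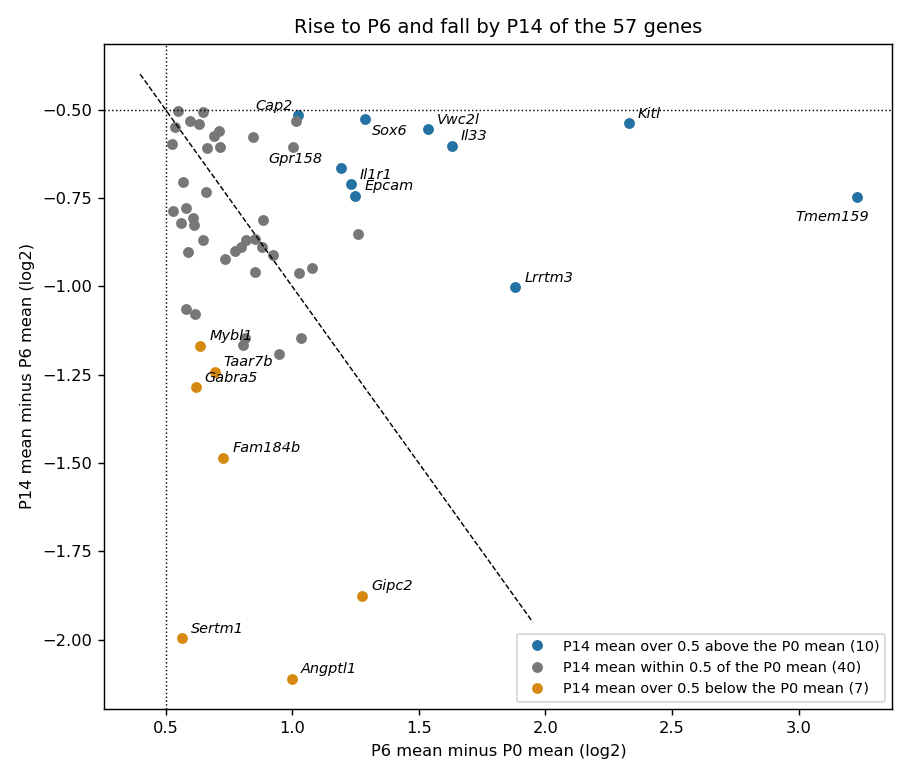
P14 mean minus P6 mean against P6 mean minus P0 mean on the log2 scale for the 57 genes; dotted lines are the thresholds of 0.5 and -0.5, and on the dashed line the P14 mean equals the P0 mean. Tmem159 and Kitl lie far right with small drops, Lrrtm3 lies at 1.88 on the horizontal axis, and Angptl1 lies lowest at -2.11, just below Sertm1.

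Lists of genes with known functions each held 5 or fewer of the 57. Synaptic adhesion proteins and organisers, with 56 measured, held the most, 5 or 8.93%, with 2 called higher and 0 lower. In the other lists that held any, the share ran from 1.33% to 6.25%, where 0.411% of all genes met the thresholds. The lists were chosen with earlier results of these data known, so nothing is read from these shares or from the calls in each list. Over all probe sets, 1.27% were called higher at P4 than at P1 and 0.749% lower. Growth factors and their receptors, with 65 measured, held Fgf10 and Kitl, and had 2 genes called higher and 1 lower at P4 than at P1. Neurotransmitter and amino acid transporters, with 41, held Slc6a17 and Slc6a11, with 3 called higher and 1 lower. Transcription factors of neural fate, with 75, held Sox6, with 4 called higher and 0 lower. The matrix list of 61 held Hapln1, with 4 higher and 3 lower, and the list of 35 matrix proteases and inhibitors held Adamts16, with 2 higher and 2 lower. Inhibitory receptors, with 16, held Gabra5 and had none called. Metabotropic receptors, with 33, held Htr1f, with 1 called higher and 0 lower. Potassium channels, sodium and calcium channels, axon guidance, Wnt and Notch signalling and the muscle list held none of the 57.

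Not all of the 57 were bright on the array. Of the 57 genes 29 had every age mean above the arrays' median of that age, 21 had some means below it, and 7 had all below it: Tmem215, Nlrp10, Cbln2, Stc2, Slitrk6, Eci3 and Olfr1234.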

How the data were processed

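The deposited table holds 1 log2 value per probe set and array for 16686 probe sets and 33 arrays. Per the submitters' processing notes, the authors used Partek 6.3, RMA and the mm9 build, and RMA can compress differences of dim probe sets. RNA passed at an integrity number of at least 5, per the labels' protocols. The platform annotation gave 1 symbol for 14993 probe sets, several for 1019 and none for 674, and 14939 of the single symbols were matched to current RefSeq names by Entrez number. Members and gene lists were chosen with earlier results of these data known, and the grouping by role was made after the members were known.

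The deposited log2 values were used as they stand. Tests used limma 3.58.1 in R 4.3.3 on the 19 arrays of P1 to P4 with a mean per age, for P4 minus P1 and for a linear trend in days, two-sided, Benjamini-Hochberg over all probe sets, threshold 0.05, and were tested on simulated data. Each mouse is 1 replicate, and the number of arrays limits the precision. Genes were named by rules: the widest rise and fall without overlap, the largest called P4 minus P1 differences, both sides of the threshold, list members, and the ends of the P14 and timing orders. Genes outside these rules are named to account for the group they belong to.
Alternatives were other scalings, filters, array weights, litter as a block, other thresholds and each mouse left out.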

Additional observations from a re-analysis of the deposited data

Results flagged for a closer look

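Of 119 groups of 4 or 5 mice of 1 age examined in 17 named genes, 7 held a mouse far from the others (Dixon's test, 95% critical values), which is 5.88%, and chance flags about 1 in 20. Slc6a17 was 5.67 in the P6 mouse of litter 4, against 6.25 in the next lowest. Angpt1 was 4.53 in that same mouse, against 5.29. Il33 was 4.79 in the P1 mouse of litter 4, against 5.69, and Kitl was 5.19 in the P2 mouse of litter 4, against 5.86. These 3 mice had the arrays with the narrowest spread of values at their ages, with interquartile ranges of 2.25 at P6, 2.55 at P1 and 2.42 at P2. Akap7 was 6.56 in the P14 mouse of litter 2, against 7.30, and Slc6a11 was 8.70 in the P14 mouse of litter 5, against 9.07. Il1r1 was high, at 4.70, in the P0 mouse of litter 3, against 4.46.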

How the results depend on the processing

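The number of genes meeting the thresholds was 57, and 110 after quantile normalization, which kept all 57. It was 107 at a threshold of 0.4, 18 at 0.75 and 4 at 1, and 52 to 95 with 1 mouse left out, the highest without the P6 mouse of litter 4. Of the 57, 35 met the thresholds in all 14 leave-one-out settings. P6 mice lay above all P0 and P14 mice in 22 genes, and in 64 of 110 after quantile normalization, 42 of 84 after median centring and 22 to 58 with 1 mouse left out. The P4 against P1 calls among the 57 were 13, and 20 after quantile normalization, which kept the 13 and added Akap7, Fam184b, Gpr158, Lrrfip1, Pdgfra, Slc6a11 and Vxn. With 1 mouse left out they were 7 to 16, and the trend calls were 9 to 17. The intensity trend with a robust prior gave 12 calls, and 14 trend calls. No setting called any of the 57 lower. After seeing the data, the 3 arrays of lowest quality weight were left out (P1 litter 4, P2 litter 4 and P3 litter 5), which gave 15 calls, without Slc6a17 and with Fam184b, Lrrfip1 and Pde9a, and 18 trend calls. The share of higher calls in the whole table was 62.9%, and 60.9% and 57.8% under quantile normalization and median centring, and 38.1% without those 3 arrays. It was 45.5% without the P1 mouse of litter 4 alone, 46.7% with litter as a block and 51.1% with array weights. In the remaining settings it ran from 60.9% to 73.8%.

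The labels number litters at each age without saying that a number is shared between ages, and deviations of mice with the same number correlated at a median of 0.06 (94 pairs, 36 above 0.1), against -0.01 for different numbers (372 pairs, 58 above 0.1). Of the 19 mice of P1 to P4, 10 were most like a mouse of their own number. Same-number pairs were more often above 0.1 than different-number pairs, but not every same-number pair was. Whether numbers mark shared litters was not settled by this, and the pairing stayed out of the reported values. With the replicate block the genes meeting the thresholds were 63, those without overlap 39, the P4 against P1 calls 14, adding Slc6a11, and the trend calls 17. Of 2076 values of named genes tried, 6 moved by over 1 SD, 20 lost a call, 19 gained one and 3 reversed: Angptl1, not called and -0.04 in P4 minus P1, was 0.064 without the P1 mouse of litter 1, 0.066 without that of litter 2 and 0.078 without the P4 mouse of litter 2 (range over mice left out -0.28 to 0.078). Over all settings 7 of the 57 had P4 minus P1 differences of both signs, none of them among the 13 called. Quantile normalization and median centring turned the median P14 minus P6 difference of all genes, 0.06 as deposited, to -0.02 and -0.06. For dim probe sets the depth of signal over background limits the differences that can be seen.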

Other observations

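Probe sets outside the set of single-symbol genes also met the thresholds: 5 of the 1019 probe sets with several symbols and 4 of the 674 with none. Among all 14993 single-symbol probe sets 63 did. These probe sets have no single gene name here and were not analysed further.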
